A study of Rattus norvegicus with 12 samples.

Results

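Vehicle pituitary was compared with vehicle hypothalamus across all genes measured on 6 of the 12 Illumina RatRef-12 BeadChip arrays of the series, 3 arrays of each tissue. The 6 arrays were chosen by their labels, as those of pups whose mothers received vehicle. The RNA came from Wistar male pups at postnatal day 70, born to dams treated by mouth on gestation day 15, and corn oil is the solvent named for the dosed dams. The other 6 arrays, 3 of each tissue, came from pups of dams given TCDD, a dioxin that binds the aryl hydrocarbon receptor, and were used here as a second set of arrays of the same tissues. The sources disagree on the dose of TCDD, with 1 µg per kg in the series text and 1 mg per kg in the sample protocols. The series was set up to ask which genes TCDD exposure before birth alters in relation to sexual behaviour, and the vehicle arrays are its controls. The labels name the tissues as such and do not say where they were cut, whether RNA of several animals was pooled, or which arrays share an animal or a litter, so p-values measure the spread between these arrays only, and the number of arrays limits the precision.

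The pituitary joins a gland of epithelial origin, whose endocrine cells store protein hormones in granules, with a neural lobe of axon endings and glia. The hypothalamus is brain tissue, in which peptide neurons that control the pituitary lie among other neurons, astrocytes, oligodendrocytes and vessels with a blood-brain barrier. Hypothalamic releasing hormones reach receptors on pituitary cells through portal vessels. In bulk tissue, fewer cells of a type and less RNA per cell cannot be told apart.

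Of 11910 probes tested, 7656 (64.3%) differed between the vehicle tissues at adjusted p under 0.05 in limma, 4250 (35.7%) with more signal in the pituitary and 3406 (28.6%) with more in the hypothalamus. In what follows a 2-fold call means adjusted p under 0.05 and a measured difference of at least 2-fold between the mean normalized intensities. The main fit was over the 11910 probes and all 12 arrays, which share a common estimate of the spread (8 residual degrees of freedom). In it n is 3 arrays in each group. Levels are log2 normalized intensities given for arrays 1, 2 and 3 in that order. Every gene called higher in a tissue passed adjusted p under 0.05. There were 2668 such calls (22.4%), 1217 (10.2%) in favour of the pituitary and 1451 (12.2%) in favour of the hypothalamus. Counts in the gene lists below are to be read against these shares over all probes. The lists were chosen with earlier results of these data known, so an excess over these shares is a description and no test. The 3 arrays of one tissue lay apart from the 3 of the other in 7942 probes (66.7%). Most genes named below were taken from these, so their separation is no result. The rest were fixed examples, members of gene families, defining cell type markers and genes said to be named after their values were seen. At 16-fold or more the calls numbered 33 for the pituitary and 80 for the hypothalamus. Where no array of the dimmer tissue detected a probe, its fold is given as a lower bound, written "at least", which can be smaller than the measured one. That held for 427 of the 2-fold calls higher in the hypothalamus and for 139 of those higher in the pituitary. The split of calls between the tissues depended on the scaling of the arrays. Quantile normalization put 55.5% of all calls and 45.6% of 2-fold calls in the pituitary, scaling to a common median put 44.5% and 34.6% there, and cyclic loess 46.1% and 35.8%. The median log2 difference over all probes tested was 0.086, -0.043 and -0.0369 in turn.

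**Figure D1:**
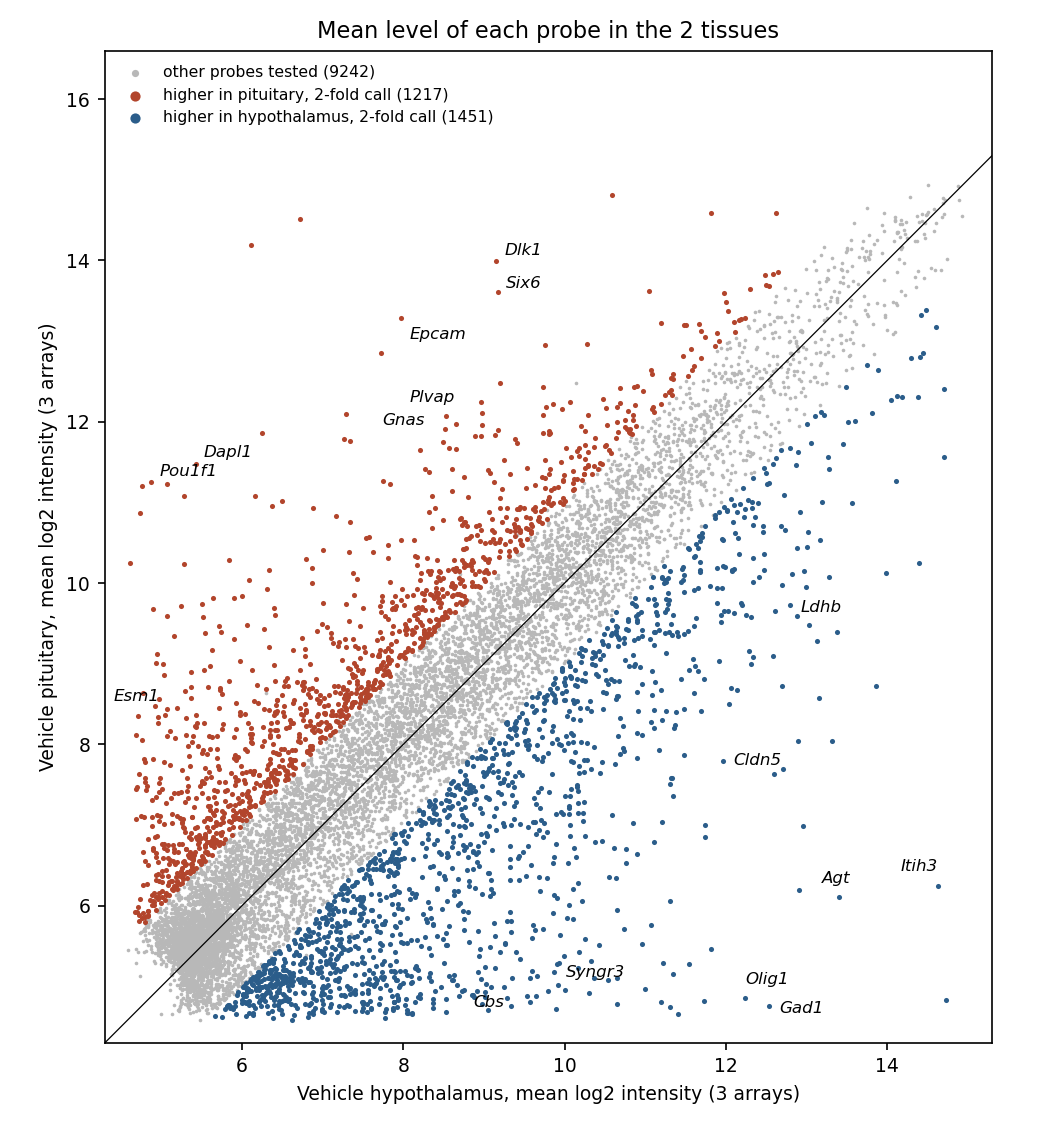
Each point is 1 of the 11910 probes tested, with its mean log2 intensity on the 3 vehicle hypothalamus arrays on the horizontal axis and on the 3 vehicle pituitary arrays on the vertical axis. The line marks equal levels, and the 1217 and 1451 coloured probes are the 2-fold calls. Blue points along the lower edge are genes near background in the pituitary, among them Gad1 and Olig1.

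Between 45.1% and 46.1% of all probes were detected on the pituitary arrays and between 49.1% and 49.8% on the hypothalamus arrays. Arrays of a group correlated at 0.984 to 0.993 (Pearson r over probes) and arrays of different tissues at 0.856 to 0.877. Hypothalamus vehicle array 1 stood apart from arrays 2 and 3 in several gene lists. It was the highest of the 3 in 23 of 25 myelinating oligodendrocyte markers and in 12 of 16 markers of neighbouring thalamus, striatum and cortex, against 4003 of all 11910 probes. Its median difference from the mean of the other 2 arrays was 0.92 (log2) over the neighbouring-region markers and 0.41 over the oligodendrocyte markers. It was the lowest in 26 of 46 neuropeptide genes and in 26 of 38 genes of endoplasmic reticulum folding, against 4608 of all probes. Without it, Lamp5, a membrane protein of brain neurons, was 14.4-fold higher in the hypothalamus in place of 24.5-fold. Itpka, a kinase of dendritic spines, was 4.12-fold higher in place of a measured 8.16-fold (12.7-fold without array 3), and Cck, cholecystokinin, 49.9-fold in place of 76.8-fold. The part of this array's makeup in the results below was not tested.

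The 15 named genes of largest fold in the pituitary were Lhb, Prl, Dapl1, Pou1f1, Fshb, Tmem184a, Gpha2, Serpina3c, Epcam, Pitx1, Ces1c, Hepacam2, Pon3, Dlk1 and Cxadrl1. They include Pou1f1, the factor of the somatotrope, lactotrope and thyrotrope lineages, Epcam, an epithelial adhesion molecule, Gpha2, the alpha subunit of the glycoprotein hormone thyrostimulin, and Dlk1, an imprinted membrane protein related to Notch ligands. The smallest fold among them was that of Cxadrl1, at 28.1-fold. Dapl1, a small protein first described in epithelial differentiation, lay at 11.54, 11.54 and 11.36 (log2 intensity) on the pituitary arrays and at 5.42, 5.45 and 5.40 on the hypothalamus arrays, 66.5-fold higher in the pituitary (log2 difference 6.06, SE 0.14, adjusted p = 5.32e-12). All 3 hypothalamus arrays detected it, dimly and within a narrow range. Serpina3c, a serine protease inhibitor, read 11.12, 10.29 and 11.21 in the pituitary and 4.85, 4.70 and 4.64 in the hypothalamus, at or below background, so it was at least 46.6-fold higher (log2 difference 6.14, SE 0.31, adjusted p = 3.80e-09).

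The 15 of largest fold in the hypothalamus were Pmch, Itih3, Agt, Gad1, Olig1, Mbp, Cck, Sst, Gfap, Mobp, Trh, Hcrt, Mog, Ttc9b and Nkx6-2. Besides peptide and myelin genes they held Itih3, a heavy chain of the inter-alpha-trypsin inhibitor that binds hyaluronan, and Agt, angiotensinogen, made in brain mainly by astrocytes. Itih3 read 6.26, 6.25 and 6.24 on the pituitary arrays and 14.49, 14.65 and 14.74 on the hypothalamus arrays, a difference of 333-fold (log2 difference -8.38, SE 0.11, adjusted p = 3.44e-14). Agt read 6.32, 6.08 and 5.92 and 13.24, 13.49 and 13.47, 157-fold higher in the hypothalamus. Gad1, which makes GABA, was at background on each pituitary array and at 12.74, 12.44 and 12.42 in the hypothalamus, at least 132-fold higher. The raw hypothalamus signals of Itih3 and Pmch ranged from 69.1% to 97.5% of that array's maximum. On the pituitary arrays those of Prl, Pomc, Chgb and Tshb ranged from 66.5% to 96.7%. Whether any of these were saturated was not tested.

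Transcription factors mostly ran with the tissue their list names, with exceptions in both directions. Of 16 pituitary lineage factors tested, 11 were higher in the pituitary, 8 of them by 2-fold, and 1 (Rxrg) was higher in the hypothalamus, with a list median of 0.89 (log2) against 0.0703 over all 8628 named genes tested. Pou1f1 read 11.32, 11.15 and 11.27 in the pituitary and stayed at background, at 4.82, 5.08 and 4.71, in the hypothalamus. Pitx1, a homeobox factor of the early pituitary, read 12.71, 12.78 and 13.09 against 6.66, 8.42 and 8.10, 35.1-fold higher (log2 difference 5.13, SE 0.57, adjusted p = 5.14e-06). Gata2, a factor of gonadotropes and thyrotropes in mouse, was 8.36-fold higher, and Tbx19, the corticotrope and melanotrope factor, at least 2.61-fold. Isl1, a LIM homeobox factor, read 6.64, 6.68 and 7.20 against 6.19, 6.73 and 6.53, and these groups overlapped (adjusted p = 0.0746), though without hypothalamus array 2 it passed (adjusted p = 0.0321).

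Of 26 patterning factors of hypothalamus and forebrain, 15 were higher in the hypothalamus, 10 of them by 2-fold, and 5 were higher in the pituitary, 2 of them by 2-fold (list median -0.55). Dlx1, a homeobox factor of GABA neurons in the forebrain, was not detected on any pituitary array, at 4.83, 4.82 and 5.01, and read 9.75, 9.64 and 9.54 in the hypothalamus, at least 17.8-fold higher. Pou3f3 and Pou3f2, POU factors of brain of which Pou3f2 is needed for oxytocin, vasopressin and CRH neurons in mouse, were at least 9.20-fold and at least 7.40-fold higher. Fezf1, a zinc finger factor of the forebrain, was 10.6-fold higher, with hypothalamus array 1 at 8.57 below arrays 2 and 3 at 9.60 and 9.80.

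Six6, a homeobox factor of the eye, hypothalamus and pituitary, ran against the name of that list. It read 13.45, 13.70 and 13.66 in the pituitary and 8.56, 9.65 and 9.30 in the hypothalamus, 21.6-fold higher in the pituitary (log2 difference 4.43, SE 0.21, adjusted p = 1.77e-09). Meis2, a homeobox cofactor, was the other one called by 2-fold, at 8.65, 8.72 and 8.35 against 8.59, 6.44 and 6.02. Its hypothalamus array 1 lay within the pituitary range, so the groups overlapped. Without hypothalamus array 2, or without array 3, 1 factor of this list was called by 2-fold in the pituitary in place of 2. Rax and Six3, early factors of hypothalamus and eye, overlapped as well (adjusted p = 0.85 and 0.888). Meis2, Rax, Six3 and Rxrg were singled out after their values were seen.

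Of 16 factors of neuronal differentiation, 9 were higher in the hypothalamus (6 by 2-fold) and 2 in the pituitary (1 by 2-fold). Glial factors were higher in the hypothalamus in 10 of 14 cases, 9 of them by 2-fold (list median -1.68). Olig1, of the oligodendrocyte lineage, read 4.83, 4.90 and 4.83 in the pituitary and 12.54, 12.15 and 12.02 in the hypothalamus, at least 108-fold higher. Nkx6-2 and Sox10, both of that lineage, were at least 45.6-fold and at least 10.5-fold higher, and all 3 were undetected on the pituitary arrays. Hey2, a Notch target, was the member of this list called higher in the pituitary by 2-fold, at 7.47, 7.28 and 7.33 against 6.03, 5.88 and 6.27.

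**Figure D2:**
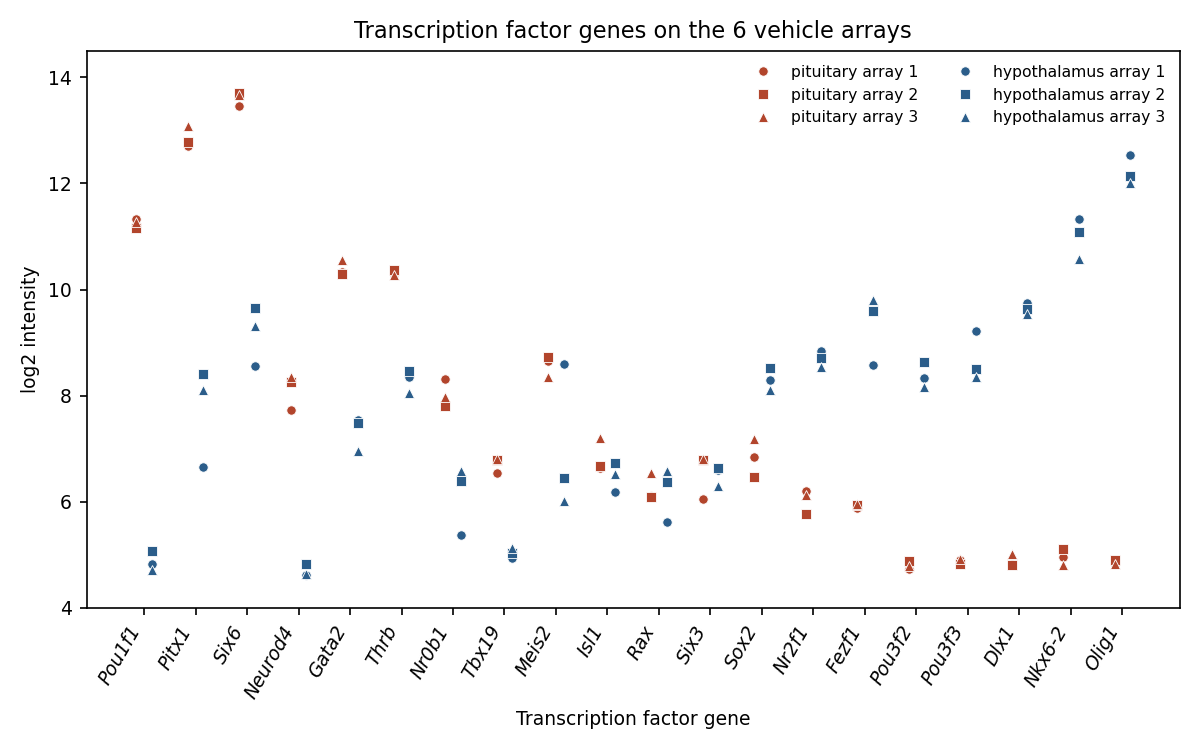
Log2 intensity (vertical axis) of 20 transcription factor genes on the 3 vehicle pituitary arrays (red) and the 3 vehicle hypothalamus arrays (blue), with a marker shape for each array number. Pou1f1, Pitx1 and Six6 lie high in the pituitary and Dlx1, Nkx6-2 and Olig1 high in the hypothalamus, while Isl1, Rax and Six3 overlap. The hypothalamus circle for Meis2 is array 1.

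Among 28 nuclear receptors and cofactors tested, 9 were higher in the pituitary (6 by 2-fold) and 6 in the hypothalamus (1 by 2-fold), with a median of 0.11. Over all probes tested 35.7% and 28.6% were called. By 2-fold the list had 21.4% and 3.57%, against 10.2% and 12.2% over all probes. Thrb, the beta thyroid hormone receptor through which thyroid hormone restrains Tshb, read 10.29, 10.37 and 10.27 in the pituitary and 8.36, 8.47 and 8.04 in the hypothalamus, 4.06-fold higher (log2 difference 2.02, SE 0.11, adjusted p = 5.89e-09). The alpha receptor Thra went the other way, at 11.20, 11.19 and 11.45 against 12.25, 11.99 and 11.91, 1.70-fold higher in the hypothalamus. Nr2f1, an orphan receptor of forebrain patterning, was 6.35-fold higher in the hypothalamus. The orphan receptors Nr4a2 and Nr4a3, which are immediate early genes, were 4.20-fold and 5.23-fold higher in the pituitary, and their pituitary arrays spread widely. Nr4a3 read 6.86, 8.36 and 9.89 there, against 6.11, 5.72 and 6.11 in the hypothalamus. Without pituitary array 3 its fold was 3.10 and without array 1 it was 8.80, and for Nr4a2 these were 2.76 and 6.76. Thra was named after its value was seen.

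All 6 hormone genes tested were higher in the pituitary, 5 of them by 2-fold. The exception was the probe of Cga, the common alpha subunit, which was dim in both tissues. Fshb, the beta subunit of follicle-stimulating hormone, read 11.17, 10.96 and 11.49 in the pituitary and was undetected in the hypothalamus, at 4.74, 4.74 and 4.80. Pituitary hormone transcripts differed in how much signal the hypothalamus arrays held. Pomc read 14.47, 14.68 and 14.62 in the pituitary and 11.11, 12.28 and 12.06 in the hypothalamus, 6.82-fold higher in the pituitary. Tshb, the beta subunit of thyrotropin, read 14.78, 14.81 and 14.86 in the pituitary and 8.99, 11.42 and 11.37 in the hypothalamus, with array 1 well below the other 2, and Prl, prolactin, read 6.69, 5.22 and 8.26 in the hypothalamus. Without hypothalamus array 1 the fold of Tshb was 10.8 in place of 18.7, and the fold of Prl was 132 without array 2 and 377 without array 3, in place of 221. Of all 6 hormone genes 3 were lowest on hypothalamus array 1, as were 8 of 16 pituitary lineage factors and 17 of 35 epithelial genes, against 38.7% of all probes tested.

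Sequence upstream of the hormone genes was examined for motifs of known pituitary factors. RefSeq promoters of assembly GRCr8 were held for 7172 of the named genes tested, and the windows searched were the 250 bases before the start, on both strands. The letters TATAAA occurred in 5 of the 5 hormone genes held (Prl, Lhb, Tshb, Cga and Pomc), in 12 of 35 neuropeptide genes (34.3%) and in 542 of all 7172 (7.56%). ATGNATA, a core of sites bound by POU1F1, occurred in 279 (3.89%), and CAAGGNCA, the site bound by NR5A1 (a receptor of gonadotropes), in 287 (4%). Among the 5 hormone genes they occurred in 1 and 2. The 5 windows below come from genes that mark the tissues: 4 hormone genes of the pituitary and Hcrt, the orexin precursor of the hypothalamus. They are examples, with the motif to mark set for each gene, and each holds a match. Of other hypothalamic peptide genes held, Avp, Oxt, Trh and Agrp had no TATAAA and are not shown. Capitals mark the motif, on either strand.
Prl, chr17:38298218-38298337, minus strand: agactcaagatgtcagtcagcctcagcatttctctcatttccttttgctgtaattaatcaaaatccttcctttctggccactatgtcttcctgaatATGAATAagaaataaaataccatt
Tshb, chr2:192918055-192918174, minus strand: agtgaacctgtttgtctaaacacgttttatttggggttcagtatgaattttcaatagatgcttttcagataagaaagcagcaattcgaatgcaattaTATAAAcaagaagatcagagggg
Lhb, chr1:105037317-105037456, plus strand: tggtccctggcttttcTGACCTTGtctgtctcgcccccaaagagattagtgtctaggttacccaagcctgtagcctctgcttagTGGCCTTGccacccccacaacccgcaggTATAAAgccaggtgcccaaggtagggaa
Pomc, chr6:32659233-32659352, plus strand: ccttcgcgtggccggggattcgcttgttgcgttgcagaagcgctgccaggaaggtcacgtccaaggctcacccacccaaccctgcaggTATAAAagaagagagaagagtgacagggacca
Hcrt, chr10:86191525-86191644, minus strand: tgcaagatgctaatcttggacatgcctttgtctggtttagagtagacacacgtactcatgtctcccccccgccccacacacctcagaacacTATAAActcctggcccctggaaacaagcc
The capitals in Prl mark ATGNATA, 24 to 18 bases before the start. In Lhb they mark CAAGGNCA as read on the other strand, 124 to 117 and 56 to 49 bases before the start, and then TATAAA at 28 to 23. In Tshb, Pomc and Hcrt they mark TATAAA, whose first base lay 23, 32 and 29 bases before the start. Prl held TATAAA farther up, 144 to 139 bases before the start and outside the stretch shown. All positions count from the start of the first RefSeq entry, and whether Prl starts there in the pituitary was not examined. The marked motifs did not overlap one another. A match describes these letters and says nothing of binding.

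Receptors for hypothalamic hormones were not a pituitary group as a whole. Of 18 tested, 6 were higher in the pituitary (2 by 2-fold) and 8 in the hypothalamus (5 by 2-fold), with a median of -0.44. Gnrhr, the GnRH receptor, read 9.94, 9.38 and 9.70 in the pituitary and 4.84, 4.98 and 4.88, undetected, in the hypothalamus. Ghrhr, the receptor of growth hormone releasing hormone, read 9.13, 8.73 and 8.70 and 5.07, 4.97 and 5.04, at least 11.5-fold higher. Drd2, the dopamine receptor that restrains prolactin, was 1.98-fold higher in the pituitary (log2 difference 0.98, SE 0.10, adjusted p = 2.76e-06), just short of a 2-fold call. In the hypothalamus Kiss1r, the kisspeptin receptor of GnRH neurons, was at least 4.92-fold higher, Sstr1, a somatostatin receptor, 7.19-fold and Galr2, a galanin receptor, at least 4.22-fold. Trhr, the TRH receptor, was detected on 0 pituitary and 3 hypothalamus arrays, with groups that overlapped (adjusted p = 0.0646), and passed under median scaling (adjusted p = 0.0372), under cyclic loess and without hypothalamus array 3.

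Genes of growth factor signalling were spread over both tissues. Of 25 tested, 8 were higher in the pituitary (4 by 2-fold) and 7 in the hypothalamus (2 by 2-fold, or 4 without hypothalamus array 2 and under cyclic loess). These counts lay near the shares over all probes tested, 35.7% and 28.6%. By 2-fold they were 16% and 8%, against 10.2% and 12.2% over all probes. Dlk1 read 14.12, 14.04 and 13.82 in the pituitary and 8.57, 9.33 and 9.56 in the hypothalamus, 28.7-fold higher. Nog, noggin, an inhibitor of bone morphogenetic proteins, was 3.68-fold higher and Igfbp5, a binding protein of insulin-like growth factors, 3.29-fold. Fgfr3, a fibroblast growth factor receptor of astrocytes, was 5.71-fold higher in the hypothalamus.

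Of 46 neuropeptide genes tested, 31 were higher in the hypothalamus, 25 by 2-fold, and 9 were higher in the pituitary, 8 by 2-fold. Pmch, the precursor of melanin-concentrating hormone, read 4.76, 4.78 and 4.93 in the pituitary, all undetected, and 14.48, 14.86 and 14.86 in the hypothalamus. Avp and Oxt, vasopressin and oxytocin, whose neurons send axons to the neural lobe, were detected on all pituitary arrays. Avp read 8.42, 8.55 and 9.22 there against 13.48, 14.23 and 13.87 in the hypothalamus, and Oxt read 8.43, 8.40 and 8.90 against 12.87, 13.81 and 12.79, the hypothalamus arrays higher in each case. The pituitary peptides were led by Calcb, the beta form of calcitonin gene-related peptide, and Nmb, neuromedin B, a bombesin-like peptide. Calcb read 9.59, 8.76 and 7.54 in the pituitary and was undetected in the hypothalamus, at least 9.87-fold higher, and Nmb read 11.42, 10.68 and 11.58 against 8.18, 7.49 and 7.85, 10.5-fold higher (log2 difference 3.39, SE 0.32, adjusted p = 1.14e-06). Npw, neuropeptide W, read 9.24, 7.64 and 7.07 in the pituitary, with array 1 above the other 2, and its measured fold was 6.26, or 4.05 without that array.

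The machinery that makes, folds and moves secreted proteins was higher in the pituitary almost throughout. Among genes of entry into the endoplasmic reticulum, 21 of 25 were higher in the pituitary, 14 by 2-fold, and none passed the test in the hypothalamus (list median 1.03). Of 38 folding and stress genes, 31 were higher in the pituitary (17 by 2-fold) and 2 in the hypothalamus (median 0.82). Of 42 coat proteins and cargo receptors between that compartment and the Golgi, 37 were higher in the pituitary (14 by 2-fold) and 2 in the hypothalamus (median 0.78). Under median scaling and under cyclic loess 9 of the entry genes were 2-fold calls in place of 14. Under median scaling the genes called higher in the pituitary numbered 17, 27 and 33, and under cyclic loess 19, 29 and 35, and the medians minus that of all probes lay between 0.60 and 0.94 in all 3 scalings.

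Within this machinery Sec61b, a subunit of the translocon channel, read 12.90, 13.09 and 12.91 in the pituitary and 10.02, 10.49 and 10.31 in the hypothalamus, 6.48-fold higher (log2 difference 2.70, SE 0.12, adjusted p = 1.08e-09). Pdia5, a protein disulfide isomerase, read 9.49, 9.40 and 9.55 against 5.93, 6.26 and 6.01, 10.7-fold higher. Creb3l1, a transcription factor held in that membrane that turns on secretory genes, was 9.79-fold higher, Kdelr3, a retrieval receptor for resident proteins, 6.67-fold and Lman1, a cargo receptor for glycoproteins, 5.80-fold. Of 27 Golgi glycosyltransferases and sulfotransferases, 6 were called for the pituitary and 11 for the hypothalamus, and 3 by 2-fold each way (6 for the hypothalamus under median scaling and under cyclic loess).

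Granule proteins and prohormone enzymes were divided. Of 20 tested, 11 were higher in the pituitary (8 by 2-fold) and 4 in the hypothalamus (2 by 2-fold), with a median of 0.86. Pcsk6, a convertase of the furin group, read 10.68, 10.45 and 10.56 in the pituitary and 7.66, 7.43 and 7.53 in the hypothalamus, 8.12-fold higher. Pcsk2, the granule convertase that makes alpha-MSH from Pomc, was 3.13-fold higher, Chgb, chromogranin B, 3.90-fold, Chga, chromogranin A, 2.75-fold and Scg2, secretogranin II, 4.11-fold. Qpct, the enzyme that forms the pyroglutamate end of peptides such as TRH and GnRH, ran the other way, undetected in the pituitary at 4.92, 4.81 and 4.82 and at 7.38, 8.19 and 8.54 in the hypothalamus, at least 5.85-fold higher. Vgf, a granin-like precursor of neurons, was 3.14-fold higher in the hypothalamus, with pituitary array 3 at 5.10 below the other 2. Without hypothalamus array 1, 4 genes of this list were 2-fold calls in the hypothalamus.

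Cytosolic ribosomal protein genes were higher in the pituitary by small amounts. Of 52 tested, 38 were called higher there and 1 in the hypothalamus, while 2 and 1 reached 2-fold, and their median lay 0.39 above that of all probes (0.48 under median scaling and 0.50 under cyclic loess). Rps2 was 2.42-fold higher in the pituitary, at 11.75, 12.13 and 12.17 against 10.90, 10.93 and 10.41, and Rplp2 was 2.50-fold higher in the hypothalamus. These genes have many near-identical copies in the genome, which a probe may not tell apart. Of 23 cell cycle genes, 15 were higher in the pituitary (6 by 2-fold) and 3 in the hypothalamus (0 by 2-fold). Cdk1, the kinase of mitosis, read 8.13, 7.98 and 7.59 against 5.81, 5.43 and 5.28, 5.25-fold higher, and Mcm2, a subunit of the replication helicase, was 4.81-fold higher.

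Most epithelial genes were higher in the pituitary. Of 35 genes of epithelial junctions and keratins, 28 were higher in the pituitary, 18 by 2-fold, and 5 in the hypothalamus, 1 by 2-fold (median 1.11). Epcam read 13.22, 13.35 and 13.30 in the pituitary and 7.09, 8.65 and 8.19 in the hypothalamus, 39.8-fold higher. Cldn3, a tight junction claudin, read 10.73, 11.16 and 11.16 against 5.93, 7.12 and 6.43, and Pkp3, a desmosomal plakophilin, read 9.59, 9.78 and 9.78 against 5.21, 5.39 and 5.15. Their folds were 23.0 and 22.1. Myo5b, a vesicle motor of polarized cells and of neurons, was the member called by 2-fold in the hypothalamus, at 2.17-fold, and 0 were without hypothalamus array 1.

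Stem and folliculostellate markers of the pituitary, the latter a network of agranular cells, were mixed, with 7 of 19 higher there by 2-fold and 5 higher in the hypothalamus by 2-fold. Capn6, a calpain-like protein, was 10.3-fold higher in the pituitary, Lcn2, lipocalin 2, 7.34-fold and Krt8, keratin 8, 7.24-fold. S100b, a calcium-binding protein of both folliculostellate cells and astrocytes, read 9.24, 9.81 and 9.74 in the pituitary and 12.69, 12.83 and 13.14 in the hypothalamus, 9.80-fold higher in the hypothalamus, and Sox2, a factor of stem cells in both tissues, was 2.79-fold higher there. Sox2 was named after its value was seen. Sostdc1, a secreted inhibitor of BMP and Wnt signals that was listed as a choroid plexus marker, read 9.77, 9.51 and 9.50 in the pituitary and was undetected in the hypothalamus, at least 19.2-fold higher. Of 11 choroid plexus markers, 4 were called for each tissue. The defining ones, Ttr and Folr1, were detected on 0 of the 3 pituitary arrays.

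Vessel genes were divided. Of 28 endothelial markers, 8 were higher in the pituitary (5 by 2-fold) and 16 in the hypothalamus (12 by 2-fold). Plvap, which forms the diaphragms of fenestrated endothelium, read 12.18, 12.17 and 12.39 in the pituitary and 9.01, 9.13 and 8.75 in the hypothalamus, 9.76-fold higher (log2 difference 3.29, SE 0.13, adjusted p = 3.75e-10), and Esm1, a proteoglycan of endothelial tip cells, was at least 8.14-fold higher. Cldn5, the tight junction claudin of the blood-brain barrier, read 7.72, 7.66 and 8.00 against 12.41, 11.93 and 11.54, 18.0-fold higher in the hypothalamus. Slco1c1, a thyroxine carrier of brain endothelium, was 13.5-fold higher there and Vwf, von Willebrand factor, at least 6.47-fold. Of 28 mural, fibroblast and meningeal markers, 12 were higher in the hypothalamus (8 by 2-fold) and 7 in the pituitary (4 by 2-fold).

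Genes of antigen presentation and interferon response were higher in the pituitary in 19 of 25 cases, 14 by 2-fold, and higher in the hypothalamus in 2, 1 by 2-fold (median 1.42). RT1-Db1, a class II chain, read 9.61, 10.54 and 10.35 in the pituitary and 5.86, 6.37 and 6.76 in the hypothalamus, 14.3-fold higher. RT1-Da was 9.58-fold higher and Cd74, the invariant chain, 5.62-fold. RT1-DMa, which loads peptides on class II, was 2.41-fold higher in the hypothalamus. Array 1 was the lowest of the pituitary arrays in 20 of these 25 genes, against 4336 of all 11910 probes. Microglial and macrophage markers ran to the hypothalamus in 12 of 20 cases, 6 by 2-fold, led by P2ry12, a purine receptor of microglia, at 7.72-fold, while Cd74 was the 1 of 4 called higher in the pituitary that reached 2-fold. RT1 genes share long stretches of sequence, which a probe may not tell apart.

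Neuronal genes were mostly higher in the hypothalamus. Of 21 genes of transmitter synthesis and vesicular loading, 17 were higher there (15 by 2-fold) and 1 in the pituitary (list median -2.35). Th, the rate-limiting enzyme of dopamine synthesis, was undetected in the pituitary at 4.87, 5.12 and 4.88 and read 10.16, 10.35 and 9.52 in the hypothalamus, at least 23.0-fold higher. The 1 gene that ran to the pituitary was Tph2, the tryptophan hydroxylase known for serotonin neurons. It read 7.92, 7.38 and 7.60 on the pituitary arrays and was undetected, at 4.75, 4.66 and 4.76, on the hypothalamus arrays, at least 4.96-fold higher (log2 difference 2.91, SE 0.13, adjusted p = 9.80e-10).

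Of 34 genes of synaptic vesicles and release, 24 were higher in the hypothalamus (16 by 2-fold) and 6 in the pituitary (2 by 2-fold), and of 32 genes of the neuronal cytoskeleton and axon, 27 (23 by 2-fold) and 2 (1 by 2-fold). Syngr3, a synaptic vesicle membrane protein, was at least 21.5-fold higher in the hypothalamus, at 9.72, 10.14 and 9.89 against 4.94, 5.02 and 5.09. Stmn2, a tubulin-binding protein of growing axons, was 28.8-fold higher and Prph, the intermediate filament peripherin, at least 16.9-fold. Of 19 postsynaptic genes 16 were higher in the hypothalamus, 12 by 2-fold, and 2 were higher in the pituitary, both by 2-fold. These were Arc, an immediate early gene of synapses, and Homer2, a scaffold of glutamate receptors. Hypothalamus array 1 reached 8.45 for Arc, near the pituitary values of 8.46, 8.73 and 8.95, while arrays 2 and 3 lay at 6.78 and 6.52. Without array 1 its fold was 4.19 in place of 2.76.

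Receptors and channels of neurons were also mostly higher there. Ionotropic receptor genes were higher in the hypothalamus in 22 of 31 cases (13 by 2-fold) and in the pituitary in 1 (0 by 2-fold). Glra2, the alpha 2 subunit of the glycine receptor, was undetected in the pituitary and read 10.03, 10.46 and 10.42 in the hypothalamus, at least 28.2-fold higher. Metabotropic receptors were higher there in 28 of 38 cases (22 by 2-fold) and in the pituitary in 3 (2 by 2-fold). Voltage-gated potassium channel genes were split, with 14 of 27 higher in the hypothalamus (9 by 2-fold) and 7 in the pituitary (1 by 2-fold). Sodium, calcium, HCN and TRP channels ran 16 (10 by 2-fold) to 3 (2 by 2-fold) of 26.

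Of 17 inward rectifier and related potassium channel genes, 3 were called by 2-fold in the pituitary and 2 in the hypothalamus. These were 17.6% and 11.8%, against 10.2% and 12.2% over all probes tested. Abcc8, the sulfonylurea receptor of ATP-sensitive potassium channels, read 10.45, 10.31 and 10.39 in the pituitary and 7.93, 7.51 and 7.45 in the hypothalamus, 6.73-fold higher. Kcnj5, a subunit of channels opened by G proteins, was 5.43-fold higher and Kcnk12, of the leak channel group, 5.37-fold. Kcnj16, an inward rectifier of glia and of neurons, was undetected in the pituitary and at least 7.35-fold higher in the hypothalamus. Of 40 genes of ion pumps and chloride carriers, 30 were higher in the hypothalamus (13 by 2-fold) and 5 in the pituitary (2 by 2-fold). Slc12a5, the KCC2 carrier that lowers chloride in neurons, read 6.37, 5.84 and 5.96 against 11.25, 11.20 and 11.47, 38.1-fold higher in the hypothalamus.

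In G protein and calcium signalling 46 of 81 genes were higher in the hypothalamus (33 by 2-fold) and 12 in the pituitary (5 by 2-fold). Gnas, the stimulatory alpha subunit that carries the signals of the GHRH and CRH receptors, read 11.60, 12.02 and 12.11 in the pituitary and 8.10, 9.05 and 8.40 in the hypothalamus, 10.5-fold higher (log2 difference 3.39, SE 0.22, adjusted p = 3.00e-08). Another tested Gnas probe, dimmer by mean (6.61 against 10.20), had a smaller log2 difference of 1.91 (adjusted p = 5.15e-07 in limma with every probe fitted). Several transcripts overlap at the Gnas locus, and the targets of the probes among them were not examined. Hpca, hippocalcin, a neuronal calcium sensor, was undetected in the pituitary and read 11.39, 10.58 and 10.00 in the hypothalamus, at least 36.0-fold higher.

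Glial markers were higher in the hypothalamus almost throughout. Of 27 astrocyte markers, 25 were higher in the hypothalamus, 24 by 2-fold, and 2 in the pituitary, 1 by 2-fold (median -3.14). Fabp7, a fatty acid binding protein of radial glia and astrocytes, read 7.71, 7.99 and 7.20 in the pituitary and 12.64, 12.42 and 12.73 in the hypothalamus, 31.2-fold higher. Acsbg1, an acyl-CoA synthetase of astrocytes, was 26.8-fold higher. Gfap, the astrocyte filament, was detected on all 3 pituitary arrays, at 7.06, 7.31 and 6.59, and 62.4-fold higher in the hypothalamus. The member called by 2-fold in the pituitary was Aldh1a1, a retinoic acid enzyme, at 2.15-fold, and 0 were without hypothalamus array 1, under median scaling or under cyclic loess.

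Of 25 myelinating oligodendrocyte markers, 24 were higher in the hypothalamus, 22 by 2-fold, and none in the pituitary (median -3.47). Mobp, a protein of compact myelin, was undetected in the pituitary and read 11.97, 11.23 and 11.01 in the hypothalamus, highest on array 1. Precursor markers ran to the hypothalamus in 14 of 15 cases, 10 by 2-fold. Pdgfra, the growth factor receptor of these precursors, was 7.21-fold higher. Tanycyte and ependymal markers were mixed, with 7 of 15 called in the hypothalamus (6 by 2-fold) and 3 in the pituitary (3 by 2-fold). Those 3 were Scn7a, a sodium-sensing channel, Adm, adrenomedullin, and Mia, a small secreted cartilage protein, at 3.40-fold, 2.82-fold and 2.30-fold.

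**Figure D3:**
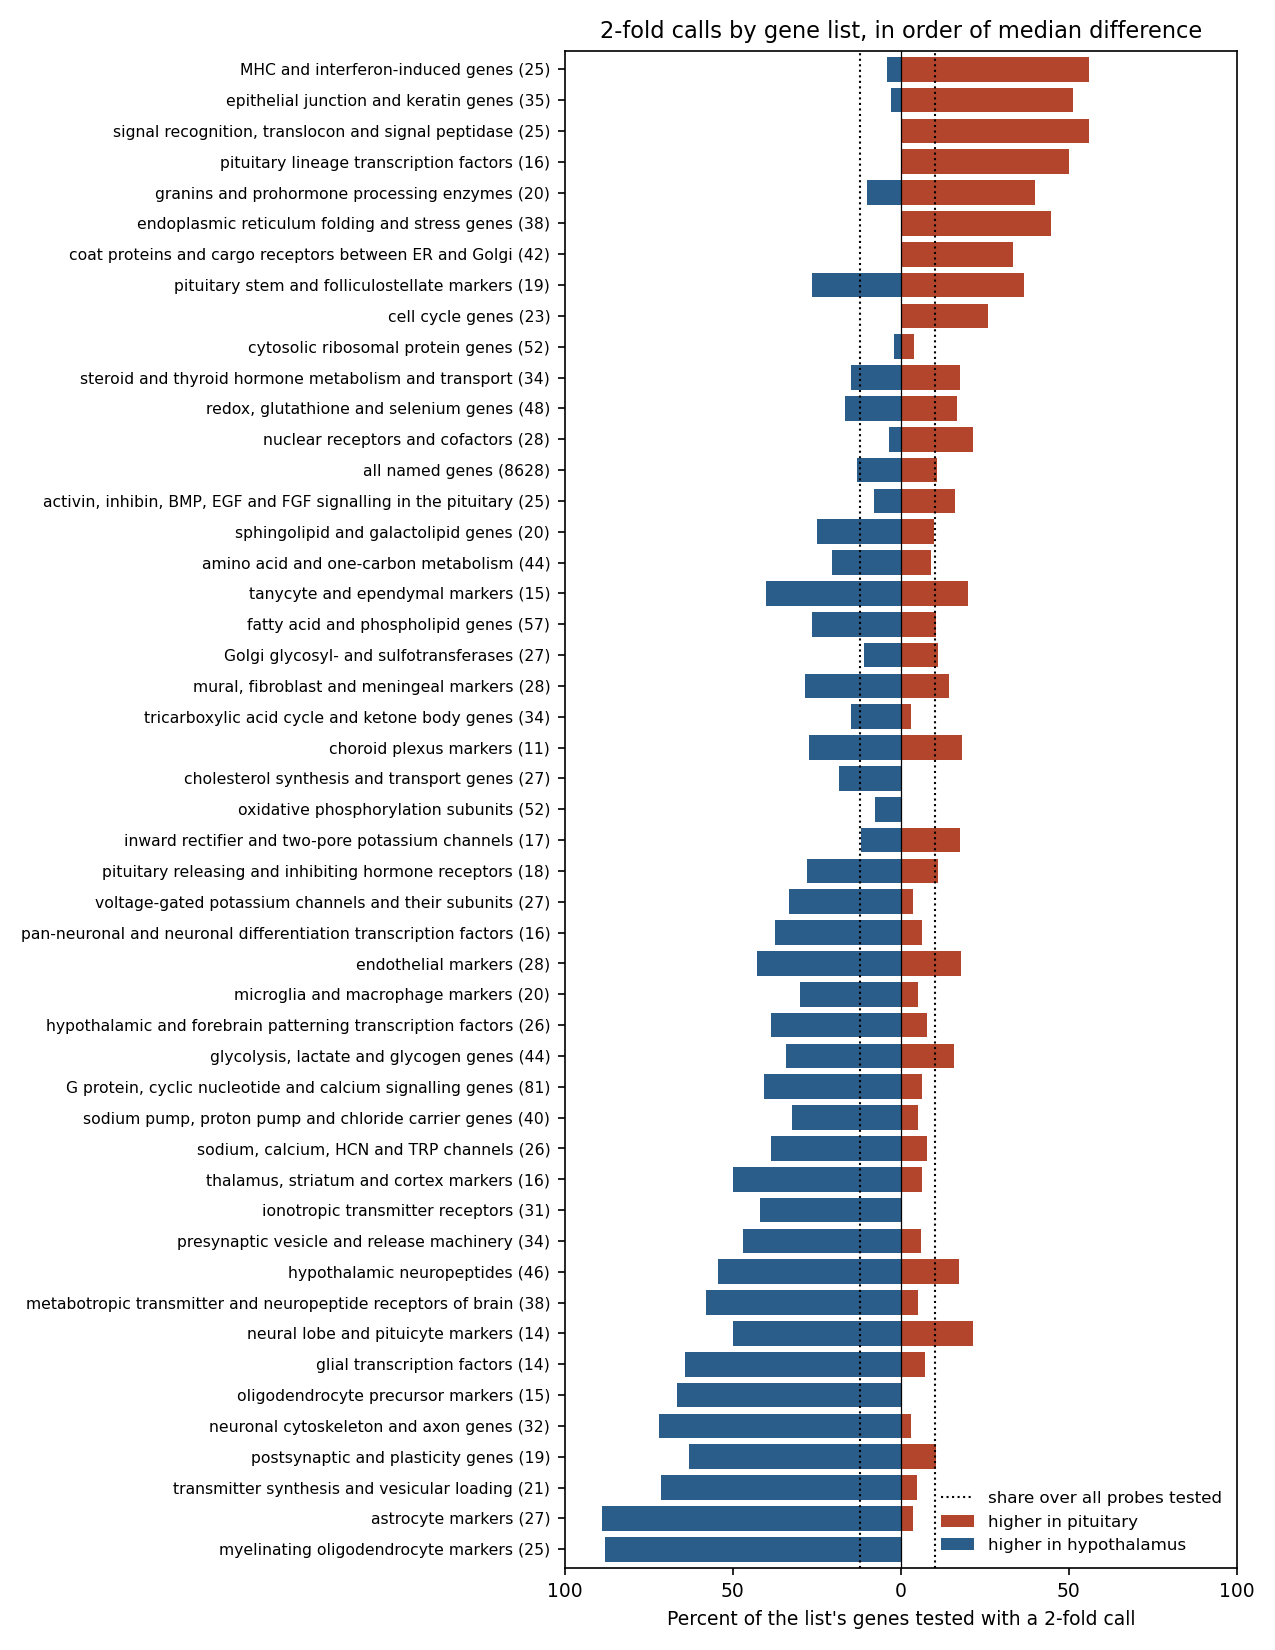
For each gene list with at least 10 genes tested (the number in brackets), the bars give the percent of its tested genes with a 2-fold call, to the right for genes higher in the pituitary and to the left for genes higher in the hypothalamus. Dotted lines mark the shares over all probes tested, 10.2% and 12.2%. Lists are in order of their median difference, from oligodendrocyte markers at the foot to antigen presentation at the top.

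More genes of energy metabolism were higher in the hypothalamus than in the pituitary. Of 44 genes of glycolysis, lactate and glycogen, 26 were higher there (15 by 2-fold) and 10 in the pituitary (7 by 2-fold). Ldhb, the lactate dehydrogenase subunit of aerobic tissues, read 9.83, 9.66 and 9.67 in the pituitary and 12.92, 12.64 and 12.82 in the hypothalamus, 8.42-fold higher. The other subunit gene, Ldha, had overlapping groups (adjusted p = 0.11). Of 52 subunits of oxidative phosphorylation, 32 were higher in the hypothalamus and 2 in the pituitary, with 4 and 0 by 2-fold (9 in the hypothalamus under median scaling and 8 under cyclic loess). Their median lay 0.45 below that of all probes (0.48 under median scaling and 0.45 under cyclic loess). Tricarboxylic acid cycle and ketone body genes were higher in the hypothalamus in 17 of 34 cases and in the pituitary in 2. Glud1, glutamate dehydrogenase, was 5.00-fold higher in the hypothalamus and Bdh1, a ketone body enzyme, 4.52-fold. Ldha was named after its value was seen.

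Fatty acid and phospholipid genes were higher in the hypothalamus in 23 of 57 cases (15 by 2-fold) and in the pituitary in 12 (6 by 2-fold). Mgll, the lipase that breaks down the endocannabinoid 2-AG, was 6.21-fold higher in the hypothalamus, and Agpat2, an enzyme of phosphatidic acid synthesis, was 4.20-fold higher in the pituitary. Sphingolipid and galactolipid genes were called in 7 of 20 cases for each tissue, with 2 by 2-fold for the pituitary and 5 for the hypothalamus, but under median scaling 4 were called for the pituitary and 8 for the hypothalamus. Cholesterol genes ran 13 to 3 of 27 to the hypothalamus, with 5 and 0 by 2-fold. Of 44 amino acid genes, 19 were called for the pituitary and 16 for the hypothalamus, against 11 and 16 under median scaling and 15 and 17 under cyclic loess. Gnmt, which uses up S-adenosylmethionine by methylating glycine, read 8.79, 9.19 and 9.13 in the pituitary and 6.01, 6.14 and 5.79 in the hypothalamus, 8.29-fold higher. Cbs, the first enzyme of transsulfuration, was undetected in the pituitary at 4.93, 5.24 and 4.92 and read 9.10, 8.77 and 9.21 in the hypothalamus, at least 11.6-fold higher, and Gatm, which makes the creatine precursor, was at least 8.27-fold higher in the hypothalamus.

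Redox genes were close to even, with 19 of 48 called for the pituitary and 16 for the hypothalamus, and the sign of their median depended on the scaling, at 0.11 under quantile normalization, -0.06 under median scaling and -0.01 under cyclic loess. Of 34 genes of steroid and thyroid hormone metabolism, 16 were higher in the pituitary (6 by 2-fold) and 8 in the hypothalamus (5 by 2-fold). That excess depended on the scaling, with 11 called for each tissue under median scaling, and 13 for the pituitary and 11 for the hypothalamus under cyclic loess. Dio1, the type 1 deiodinase that acts on thyroxine, read 8.12, 8.49 and 8.49 in the pituitary and was undetected in the hypothalamus, at 5.19, 4.84 and 5.10, at least 8.22-fold higher. Cyp27a1, a sterol hydroxylase of mitochondria, was 4.51-fold higher in the pituitary. Fkbp5, a glucocorticoid-induced cochaperone of steroid receptors, was 3.00-fold higher there. Thrsp, a thyroid hormone responsive gene of fat synthesis, was 10.0-fold higher in the hypothalamus.

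In 6 of 45 gene families, as listed, different members were called by 2-fold in opposite tissues. Families with 0 or 1 member tested, such as sodium pump alpha subunits and complexins, could not divide. Over all probes tested 10.2% were 2-fold calls in the pituitary and 12.2% in the hypothalamus. How often sets of unrelated genes would divide was not tested, so the count is no result about families. The lists did not hold every member of a family: Eno3 was not on the list of the enolases, which divide once it is added. Among glycogen phosphorylases, Pygl, the liver form of this enzyme of glycogen breakdown, was 2.48-fold higher in the pituitary, and Pygm, the muscle form, and Pygb, the brain form, were 11.6-fold and 2.45-fold higher in the hypothalamus. Among the Rab3 proteins of regulated secretion, Rab3d read 11.80, 11.69 and 11.47 in the pituitary and 8.84, 8.61 and 8.51 in the hypothalamus, 8.02-fold higher, and Rab3b was 2.16-fold higher. Rab3a, the form of synaptic vesicles, read 6.35, 6.77 and 6.94 against 8.76, 8.95 and 8.53, 4.17-fold higher in the hypothalamus. Tubb6 was 2.89-fold higher in the pituitary while the neuronal beta tubulins Tubb2b, Tubb2a and Tubb3 were 10.5-fold, 4.23-fold and 3.55-fold higher in the hypothalamus. Cldn3, Cldn4, Cldn9 and Cldn1 were called by 2-fold in the pituitary, and Cldn5, Cldn11 and Cldn10 in the hypothalamus. Among POU factors, Pou1f1 was called by 2-fold in the pituitary and Pou3f2 and Pou3f3 in the hypothalamus. Drd4, a dopamine receptor, was at least 1.97-fold higher in the pituitary (a measured log2 difference of 1.32) and Drd1 2.10-fold higher in the hypothalamus, or 1.37-fold without hypothalamus array 1. Drd1 missed the threshold without pituitary array 1 (adjusted p = 0.0558) and in a fit to the 6 vehicle arrays alone (adjusted p = 0.0628).

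**Figure D4:**
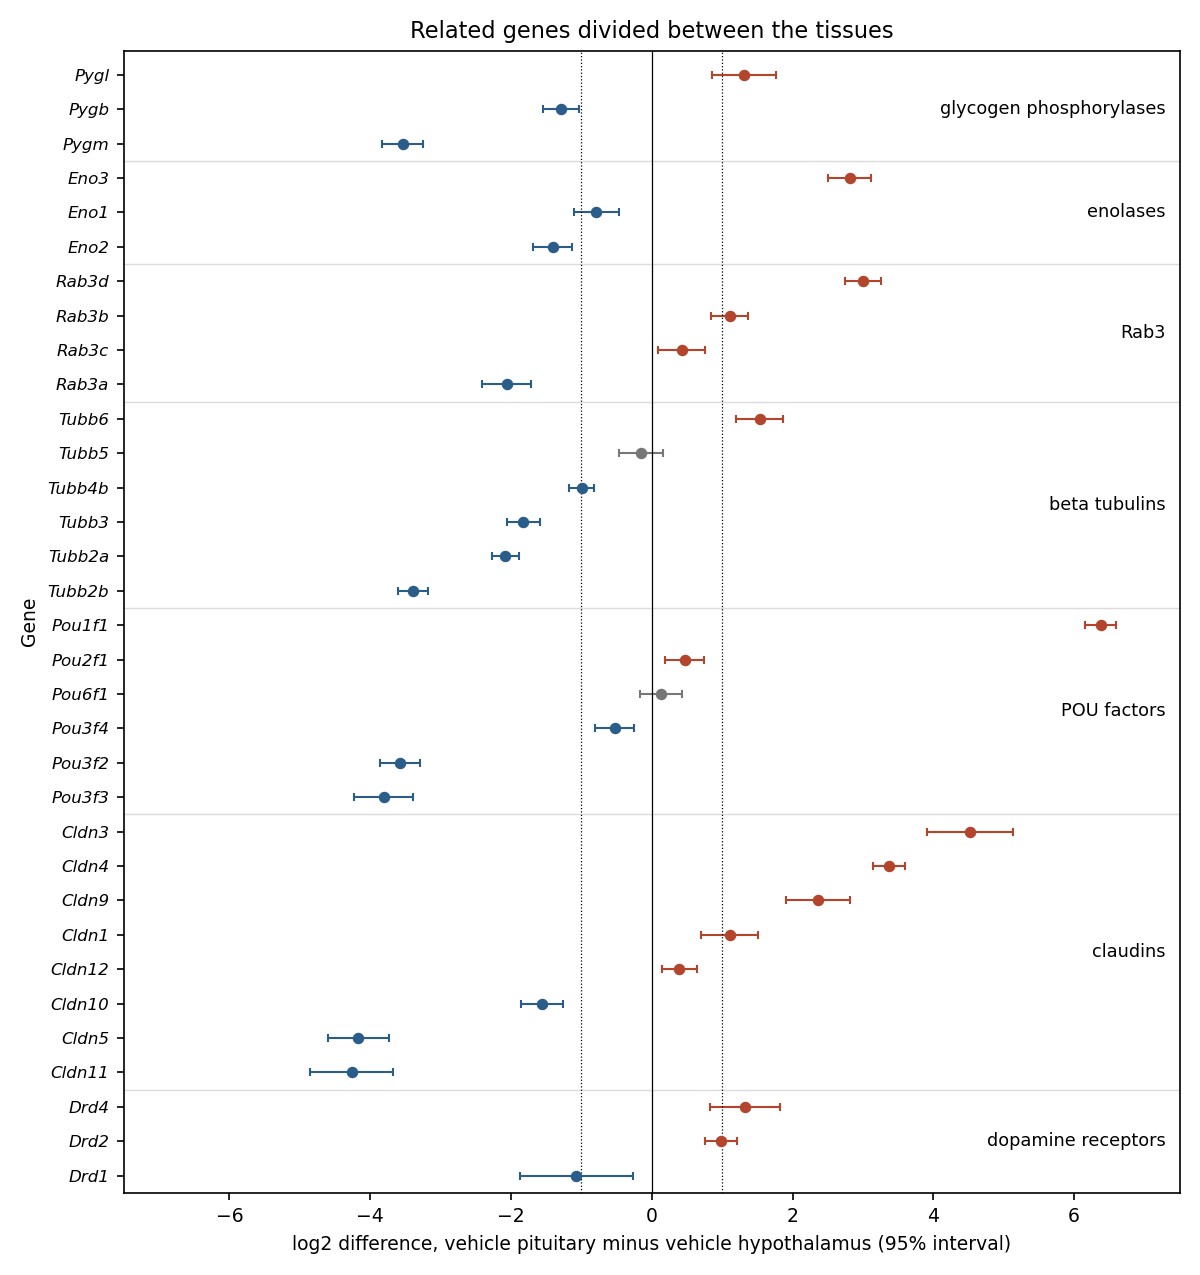
Points are log2 differences, vehicle pituitary minus vehicle hypothalamus, for every tested member of the 6 divided families and of the enolases, and bars are 95% intervals from the limma fit. Red and blue points passed adjusted p under 0.05, grey ones (Tubb5 and Pou6f1) did not, and dotted lines mark 2-fold. The enolases, added after their values were seen, run from Eno3 at 7.04-fold higher in the pituitary to Eno2 at 2.65-fold higher in the hypothalamus.

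Every tested defining marker of gonadotropes, lactotropes, thyrotropes and corticotropes was higher in the pituitary, and every one of hypothalamic neurons, astrocytes and oligodendrocytes was higher in the hypothalamus. Gh1, the somatotrope hormone, and Pecam1, an endothelial marker, were not analysed here. Aif1, a microglial marker, was detected on all arrays of both tissues and was 1.40-fold higher in the hypothalamus. Of 14 markers of the neural lobe and its glia, 8 were higher in the hypothalamus (7 by 2-fold) and 3 in the pituitary (3 by 2-fold), and of 16 markers of thalamus, striatum and cortex 10 and 1 (8 and 1 by 2-fold). The haemoglobin gene Hba-a1 overlapped between the tissues (adjusted p = 0.756), as did Hbb.

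The comparison was then made on the 6 TCDD arrays. It shares no array with the vehicle comparison, but in the main fit it shares the estimate of the spread. There 7707 of 11910 probes (64.7%) differed at adjusted p under 0.05, and 2751 (23.1%) were 2-fold calls, 1220 (10.2%) on the side of the pituitary and 1531 (12.9%) on that of the hypothalamus. Groups did not overlap in 8381 probes (70.4%). Of the 2668 vehicle 2-fold calls, 2632 passed in the same direction, 2331 of them again at 2-fold, and 0 had the opposite sign. With each set of 6 arrays normalized and fitted alone, 2613 of 2642 calls tested in both passed in the same direction, and 0 had the opposite sign. The vehicle arrays alone, over 11146 probes, gave 3883 calls at adjusted p under 0.05 in the pituitary and 3104 in the hypothalamus. The main fit gave 4250 and 3406. The difference between the 2 tissue differences passed adjusted p under 0.05 in 0 probes in limma, and 738 had an unadjusted p under 0.05. Over all probes the 2 sets of differences had a Pearson r of 0.974, a description across probes, which are not independent.

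**Figure D5:**
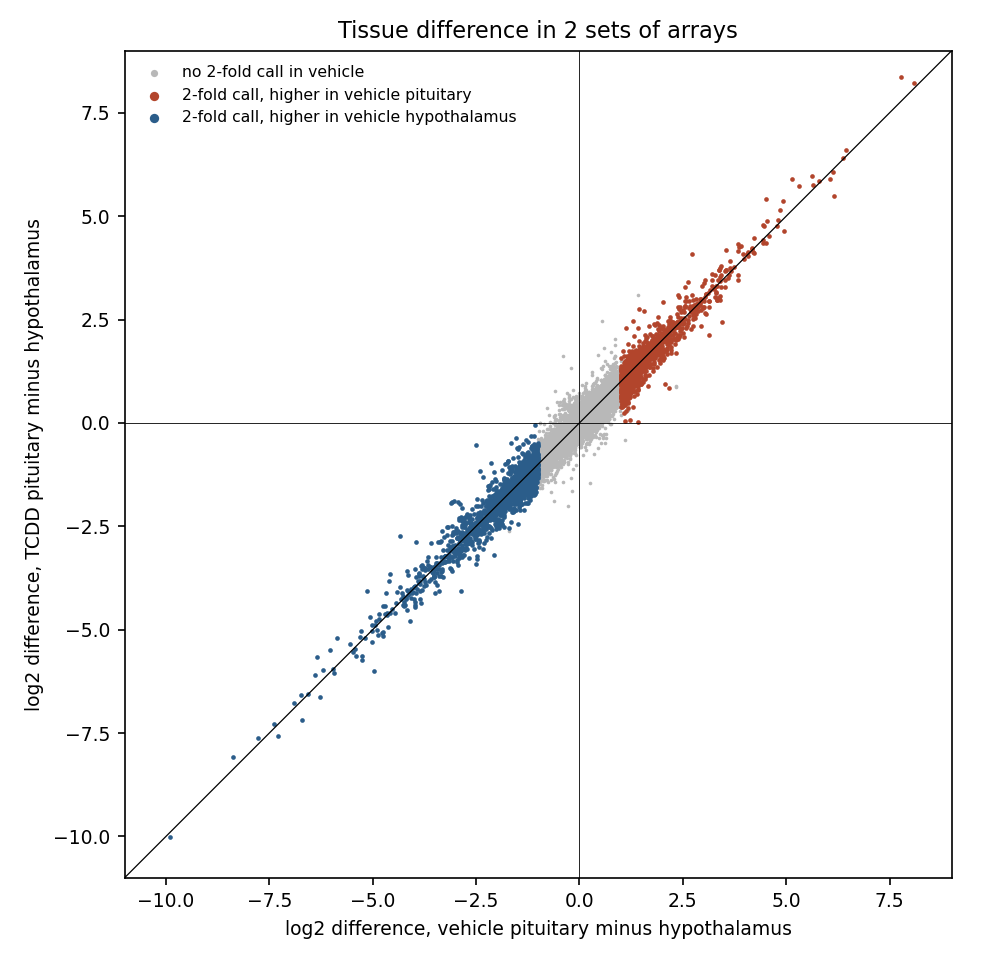
Each point is a probe, with its log2 difference between pituitary and hypothalamus on the vehicle arrays (horizontal axis) and on the TCDD arrays (vertical axis), and the diagonal marks equal differences. All 2668 coloured probes, the vehicle 2-fold calls, keep their sign on the vertical axis.

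Of 237 named genes with a 2-fold call on the vehicle arrays, 216 had a TCDD difference within 1.5 times of the vehicle one, 14 a smaller one and 7 a larger one. Most of these genes were chosen for large vehicle folds, and this count was not made over all 2668 calls. It is therefore no result about these genes. Over all probes tested the change between the 2 differences had an SD of 0.25 (log2). Six6 was 20.5-fold higher in the TCDD pituitary, Tph2 at least 4.63-fold, Gnas (by its brighter probe) 13.3-fold and Plvap 8.22-fold. In the TCDD hypothalamus Itih3 was 272-fold higher. Among the 14, Avp was 16.8-fold higher in the hypothalamus in place of 35.2-fold, Oxt 12.6-fold in place of 23.9-fold and Itpka a measured 3.68-fold in place of 8.16-fold. Drd1 had overlapping groups, at 6.30, 6.25 and 6.11 in the pituitary and 6.23, 6.08 and 6.46 in the hypothalamus. Among the 7, Fabp7 was 64.2-fold higher in the hypothalamus in place of 31.2-fold and Pitx1 59.3-fold higher in the pituitary in place of 35.1-fold. None of these 21 genes passed the test of the difference between the sets (adjusted p at least 0.678 in limma).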

How the data were processed

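RNA of male rat pituitary and hypothalamus was hybridised to 12 Illumina RatRef-12 arrays, 3 in each of 4 groups set by the labels. The deposited table holds, per the file headers, 1 non-normalized intensity and 1 detection p-value for each of 22523 probes and array. The authors' normalized values were not used, because each tissue was normalized on its own. All 12 arrays were background-corrected from the detection p-values with limma 3.58.1 (R 4.3.3; nec, offset 16), quantile-normalized together and put on the log2 scale. The fit used 4 group means and adjusted p-values by Benjamini-Hochberg over 11910 probes detected (p under 0.05) on at least 3 arrays. A gene was read from its brightest probe by mean. Of the probes, 13793 had 1 symbol in the platform annotation, 13752 of them held by RefSeq (GRCr8), and 8730 had none. For promoters the first entry of a symbol was used. The fit was tested on simulated intensities with few probes changed, evenly in both directions. That test cannot show how the scaling acts on these data, in which 64.3% of probes differed.

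Named genes, with groups that do not overlap, were the 15 of largest fold in each tissue and up to 3 2-fold calls of largest fold per list and direction; added were all members of divided families, and fixed examples. Genes named outside this rule were defining markers of cell types and genes named after their values were seen. The members, lists and named genes were chosen with earlier results of these data known. Alternatives covered background, offset, scaling, filter, probe choice, fit, the replicate number as a block and leaving out each array.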

Additional observations from a re-analysis of the deposited data

How the results depend on the processing

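No gene named by the selection rule changed direction under any alternative tried. Genes named outside that rule, such as Rax, Thra and Ldha, were not put through the alternatives one by one. With median scaling or cyclic loess in place of quantile normalization, the median difference of all probes and that of the redox genes changed sign, and the hypothalamus in place of the pituitary had most of the calls. In the vehicle comparison the 2-fold calls fell to 605 in the pituitary and 871 in the hypothalamus when limma tested against 2-fold itself (treat), and to 683 and 926 with no background correction. On the TCDD arrays they were 721 and 964 with no background correction, and under median scaling 799 probes were 2-fold calls in the pituitary and 2778 passed adjusted p under 0.05 there. Leaving out 1 array at a time gave 1181 to 1267 and 1431 to 1487 vehicle 2-fold calls in the pituitary and the hypothalamus, and 3917 to 4097 and 3187 to 3261 calls at adjusted p under 0.05. On the TCDD arrays these ranges were 1208 to 1248, 1492 to 1575, 3910 to 3999 and 3176 to 3302. The replicate numbers of the sample descriptions did not pair the tissues (same-number correlations of deviations 0.0162, 0.336 and -0.038 on the vehicle arrays). The sample titles carry other numbers, which only pituitary array 2 and hypothalamus array 3 share among the vehicle arrays (r = -0.206) and pituitary array 1 and hypothalamus array 2 among the TCDD arrays (r = 0.104), too few pairs for a block. With the description's number as the replicate block, which says nothing of the titles' numbers, 1218 and 1452 vehicle probes were 2-fold calls and 4225 and 3387 passed. On the TCDD arrays the block gave 1219, 1530, 4241 and 3446. Counted as pairs of a named gene and a setting, genes kept their side of the threshold in 3713 pairs. They gained a call in 8 (Isl1, Nkx2-1 and Trhr) and lost one in 8 (Cldn12, Drd1 and Rab3c). Counts of 2-fold calls in a list and direction moved by more than 1.5 times in 78 pairs of a count and a setting, and held in 1392. Endothelial 2-fold calls in the pituitary numbered 3 in place of 5 under median scaling, under cyclic loess, and without hypothalamus array 2 or pituitary array 2. Cholesterol calls in the hypothalamus numbered 3 in place of 5 without pituitary array 3, and steroid and thyroid calls in the pituitary 3 in place of 6 under median scaling and cyclic loess. Many list counts fell with no background correction. In the hypothalamus metabotropic receptors then had 14 2-fold calls in place of 22, ionotropic receptors 8 in place of 13 and synaptic vesicle genes 10 in place of 16. Precursor markers had 5 in place of 10 and endothelial markers 7 in place of 12. Pituitary lineage factors in the pituitary had 5 in place of 8. The cause was not tested. Probes near background carry only a bound, and signals near the top of an array may understate a difference. Of 152 genes with more than 1 tested probe, 1 had 2-fold calls in opposite directions.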
